A study of Mus musculus with 66 samples.

Results

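The 10 transcripts described here are known to be induced by glucocorticoid hormones and were followed through mouse hippocampus after an injection of brain extract: Fkbp5, Tsc22d3, Sgk1, Mt1, Mt2, Per1, Zbtb16, Pdk4, Plin4 and Cdkn1a. They were taken by exact gene symbol from the expression tables of a 3-month and a 12-month cohort, and 10 of the 55421 gene rows in each table carried these names. Each was above the filter on low values in both cohorts, so 10 of 10 were tested. All mice were C57BL/6 with no transgene or deletion named, and each group received an extract of either control brain (Ctrl) or Alzheimer's disease brain (AD). Hippocampal poly(A) RNA was sequenced 1, 3 or 5 months post injection (mpi). For the 3-month cohort, 1 mpi is represented by 5 Ctrl and 6 AD libraries, 3 mpi by 5 of each, and 5 mpi by 5 Ctrl but only 3 AD libraries. For the 12-month cohort the numbers are 5 Ctrl and 6 AD libraries at the earliest time, 6 of each at the middle one and 7 of each at the last. No group without an injection was analysed here, the age may be that at injection or at collection, which is unstated, and whether every library comes from its own animal is unstated. The p-values below therefore measure the spread between libraries, which may in part be technical.

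Corticosterone, the main glucocorticoid of mice, enters cells and binds the glucocorticoid receptor (Nr3c1) and the mineralocorticoid receptor (Nr3c2), both of which are abundant in hippocampus. The bound receptor moves to the nucleus and activates genes that carry glucocorticoid response elements. Fkbp5 is a co-chaperone that lowers the receptor's affinity for hormone and so closes a feedback loop. Hormone release follows the time of day and rises with stress, and the 10 genes differ in what else regulates them: heavy metals act on Mt1 and Mt2, the circadian clock on Per1, p53 on Cdkn1a, and fasting on Pdk4.

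Of the start-site sequences, 4 windows are printed, each as an example of the motif named with it. RefSeq windows on GRCm38.p6, from 250 bases before to 50 bases after a gene's start, were found for 9 of the 10 members and numbered 18, since several genes have more than 1 start; Zbtb16 had none. Motifs were searched on both strands, and the full elements, metal response cores and E-boxes described below are in capitals. The half-site AGAACA was searched too and is not in capitals on its own; it was in 19.0% of all windows of the table. The cAMP response element was found in 0 of the 18 windows and in 1.79% of all. Negative positions count back from the start, with -1 the base just before it. The full glucocorticoid response element, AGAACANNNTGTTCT, was found in 1 of the 18 windows, the one at chr10:21993640-21993939 on the plus strand for Sgk1, at positions -189 to -175. It was found in 3 of the 32851 windows of this length in the table (0.00913%). The same Sgk1 window also holds the E-box CACGTG, the site of the clock proteins, at -246, and 3 half-sites, of which 2 are part of the full element and 1 overlaps the E-box.
Sgk1: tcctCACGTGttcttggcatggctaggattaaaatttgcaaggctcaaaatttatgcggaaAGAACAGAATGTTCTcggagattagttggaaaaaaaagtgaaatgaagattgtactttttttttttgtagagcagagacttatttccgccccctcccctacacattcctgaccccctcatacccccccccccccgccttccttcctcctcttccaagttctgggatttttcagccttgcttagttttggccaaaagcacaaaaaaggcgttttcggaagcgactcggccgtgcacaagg
The core of the metal response element, TGCNCNC, was found 6 times in the Mt2 window (chr8:94172368-94172667, plus strand) and 3 times in the Mt1 window (chr8:94178839-94179138, plus strand). At least 1 such core was in 51.0% of all windows, at least 3 in 7.10%, and at least 6 in 0.225%, and the Plin4 window and a further Sgk1 window held 3 each, as the Mt1 window did.
Mt1: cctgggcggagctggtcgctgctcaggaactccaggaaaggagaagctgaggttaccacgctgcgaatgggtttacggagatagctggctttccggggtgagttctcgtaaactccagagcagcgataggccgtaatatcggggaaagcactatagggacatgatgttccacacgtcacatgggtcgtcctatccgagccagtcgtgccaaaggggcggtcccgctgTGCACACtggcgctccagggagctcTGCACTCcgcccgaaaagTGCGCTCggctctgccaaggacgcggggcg
Mt2: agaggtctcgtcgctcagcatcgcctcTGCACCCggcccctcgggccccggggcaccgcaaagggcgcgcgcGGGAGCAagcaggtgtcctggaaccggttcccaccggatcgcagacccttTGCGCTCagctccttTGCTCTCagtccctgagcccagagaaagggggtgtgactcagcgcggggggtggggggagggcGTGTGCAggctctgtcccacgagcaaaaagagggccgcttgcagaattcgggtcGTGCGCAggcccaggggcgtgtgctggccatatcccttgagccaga
The first Per1 window (chr11:69098699-69098998, plus strand) holds the E-box CACGTG, at -166, as 7.15% of all windows do and as the Fkbp5 window does at -169.
Per1: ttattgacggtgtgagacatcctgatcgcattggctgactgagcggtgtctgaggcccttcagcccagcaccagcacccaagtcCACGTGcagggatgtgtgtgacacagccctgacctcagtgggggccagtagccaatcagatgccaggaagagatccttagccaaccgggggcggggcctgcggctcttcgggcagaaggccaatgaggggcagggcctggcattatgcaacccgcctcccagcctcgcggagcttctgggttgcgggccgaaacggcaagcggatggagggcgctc
These matches describe letters in short windows. Response elements outside them were not searched.

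The libraries held 42462638 to 65907005 reads assigned to genes. A gene's level is given in scaled RPM: its reads over the library's total, multiplied by a constant and by a scaling factor per library. The tissue label was checked against 7 marker genes of hippocampal subfields, whose summed level was 399 to 615 in all 66 libraries, while 3 blood markers summed to 2.38 to 57.9. Choroid plexus epithelium, a neighbouring tissue, was present in very unequal amounts: its 10 markers summed to 61.8 to 10374 across libraries. In the 3-month cohort that sum was 3657 to 7874 in the Ctrl group at 3 mpi and 61.8 to 835 in the AD group at 5 mpi. In bulk RNA, fewer cells of a type and less RNA per cell cannot be told apart. Each library was also placed by Xist, which is transcribed from the inactive X chromosome, against 4 Y-linked genes, since the sex of the animals was not used as a label. In all, 30 libraries were Xist-high, 10 of 29 in the 3-month and 20 of 37 in the 12-month cohort. Their number differed between groups compared below: 1 of 5 Ctrl and 3 of 6 AD libraries at 1 mpi, 1 of 5 Ctrl and 2 of 5 AD libraries at 3 mpi, and 2 of 5 Ctrl and 1 of 3 AD libraries at 5 mpi in the 3-month cohort, against 3 or 4 in each group of the 12-month cohort.

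Per kilobase of transcript, the metallothioneins were the most abundant members. These small proteins bind zinc and copper. The mean level over 66 libraries was 187 per kilobase for Mt2 and 122 for Mt1. The lengths used were 588 bases for Mt2 and 1246 for Mt1, the latter the whole span of the gene. Not divided by length, the means were 110 scaled RPM for Mt2 and 152 for Mt1, so the order of this pair depends on the lengths. Per kilobase, the other members were lower. The mean was 18.7 for Sgk1, a kinase that acts on ion channels and transporters, and 13.8 for Tsc22d3, which encodes the anti-inflammatory protein GILZ. The transcription factor Zbtb16 followed at 10.5, the clock gene Per1 at 9.28 and Fkbp5 at 7.43. Pdk4, the kinase that switches off pyruvate dehydrogenase, had a mean of 5.13, the cell cycle inhibitor Cdkn1a 2.88, and the lipid droplet protein Plin4 1.43. The order of these means is a description.

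Plin4 varied most between libraries. Its level ran from 2.05 to 97.04 scaled RPM, a 47.3-fold range, with 91 to 5006 reads behind each value. Cdkn1a covered a 7.28-fold range, from 5.56 to 40.5. The other 8 members covered between 2.75-fold (Pdk4, 9.66 to 26.6) and 4.46-fold (Tsc22d3, 30.7 to 137). Within groups, the standard deviation of the log2 level of Plin4 was 0.98 in the 3-month and 0.61 in the 12-month cohort, larger than that of 99.8% and 99.1% of all genes tested. Without the 3-month library at 97.04 it was 0.54 in that cohort. Sgk1 had within-group standard deviations of 0.40 and 0.41 on the log2 scale, larger than those of 97.2% and 97.5% of genes. Per1 was the steadiest member in the 3-month cohort, with 0.23, and 87.3% of genes were below it. The median gene had 0.13 in the 3-month and 0.15 in the 12-month cohort.

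**Figure D1:**
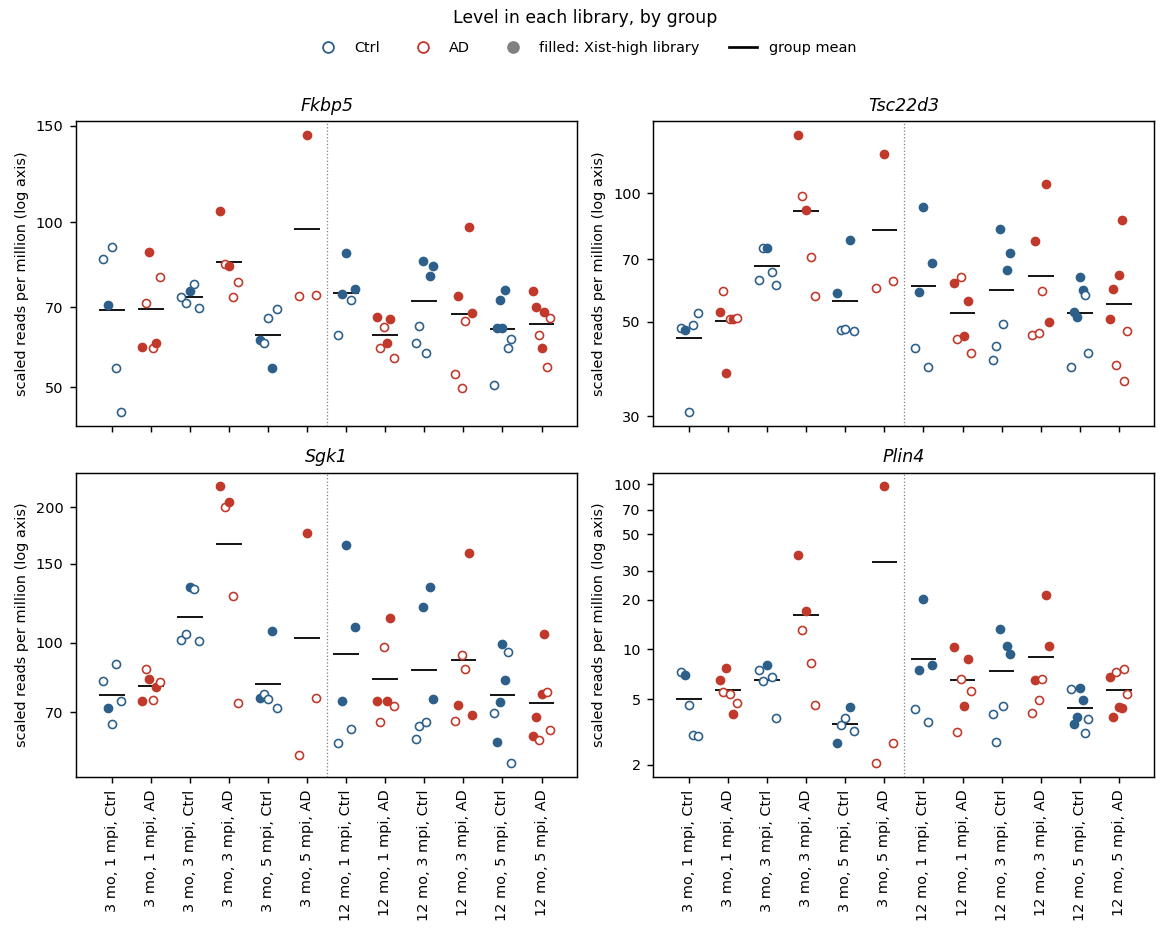
Level of Fkbp5, Tsc22d3, Sgk1 and Plin4 in each of 66 libraries, in scaled RPM on a log axis, by cohort, time after injection and extract. Points are libraries, filled where Xist-high, and the line is the group mean; for Plin4, replicate 2 of the 3-month AD group at 5 mpi stands at 97.04, above all other libraries.

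A few libraries carried much of this range, and several members were high in the same ones. In the 3-month cohort, replicate 2 of the AD group at 5 mpi had the highest level of its group for 10 of 10 members and stood above every Ctrl library of that time for all of them. Its Plin4 level was 97.04, against 2.05 and 2.72 in the other libraries of its group and 2.72, 3.47, 3.87, 4.50 and 3.22 in the 5 Ctrl libraries. Its Cdkn1a level was 40.5, against 6.17 and 5.81 in its group and 6.56, 6.88, 8.75, 8.39 and 7.69 in Ctrl. Both genes were thus at Ctrl values or below in the other AD libraries of that time. Replicate 1 of the 3-month AD group at 3 mpi exceeded every Ctrl library of its time for 10 of 10 members and was highest in its group for 8. In the 12-month cohort, replicate 3 of the Ctrl group at 1 mpi was highest in its group for 10 of 10 members, with Plin4 at 20.2 against 4.39, 7.47, 3.66 and 8.07 in the other Ctrl libraries. Replicate 5 of the 12-month AD group at 3 mpi was highest for 9 of 10, with Plin4 at 21.3 against a range of 4.13 to 10.5 in the rest of its group. High libraries therefore occurred in Ctrl as well as AD groups.

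**Figure D2:**
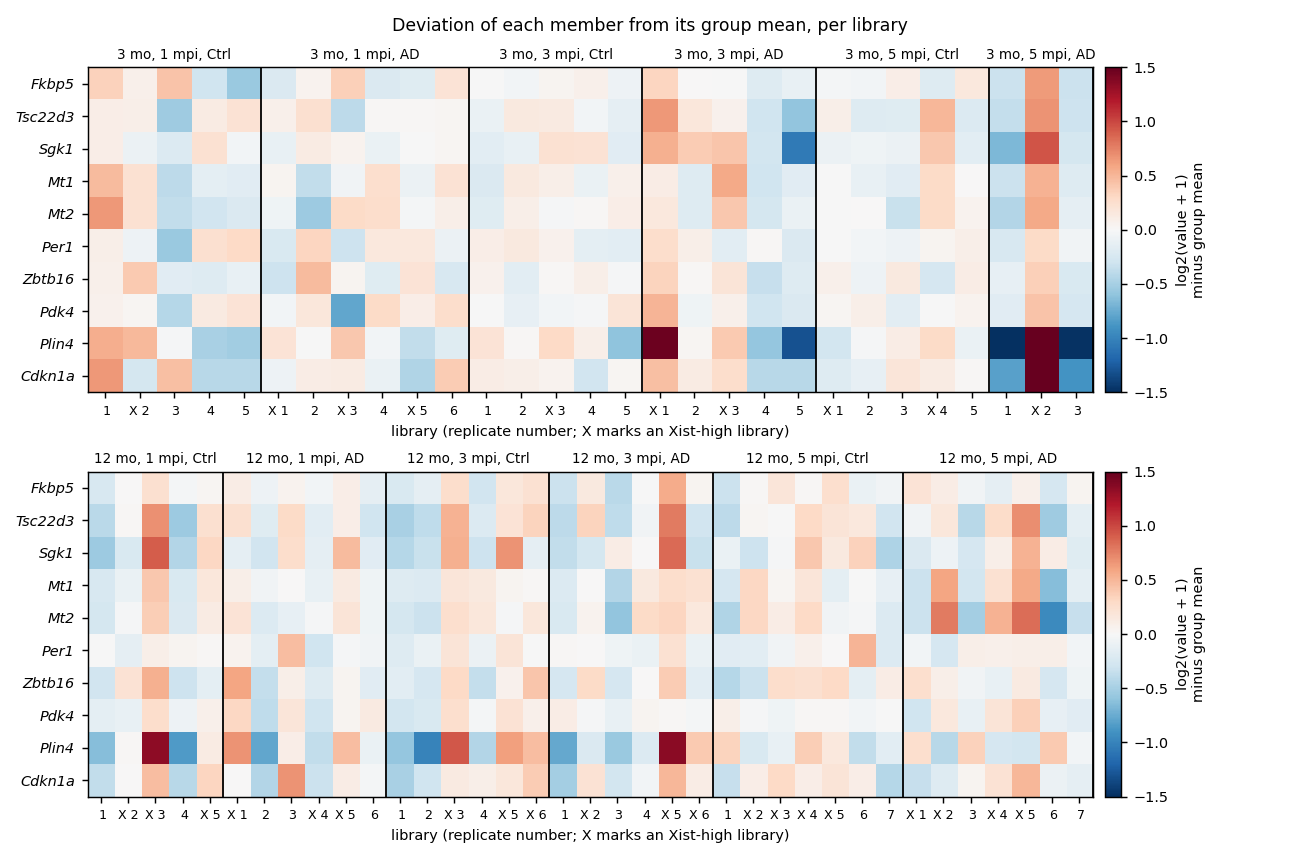
Deviation of each member's log2 level from its group mean in every library, as a heat map with members in rows, libraries in columns grouped as in the study, and colours limited at 1.5 in either direction. An X marks an Xist-high library; columns that are high in nearly every row include replicate 2 of the 3-month AD group at 5 mpi and replicate 3 of the 12-month Ctrl group at 1 mpi.

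A score was formed for each library as the mean over members of the deviation from the group mean divided by its standard deviation. It was 2.31 in replicate 2 of the 3-month AD group at 5 mpi, 1.32 in replicate 1 of the AD group at 3 mpi and 0.90 in replicate 1 of the Ctrl group at 1 mpi. In the 12-month cohort the top values were 1.60 in replicate 5 of the AD group at 3 mpi, 1.59 in replicate 3 of the Ctrl group at 1 mpi and 1.24 in replicate 5 of the AD group at 5 mpi. Of the 10 highest scores, 6 in the 3-month and 9 in the 12-month cohort belonged to Xist-high libraries. Among all libraries, 10 of 29 and 20 of 37 were Xist-high.

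After the group means were removed, the members moved together from library to library. Over the 29 libraries of the 3-month cohort, 44 of the 45 pairs of members had a positive correlation of log2 levels, with a median r of 0.46 and a range of -0.14 to 0.92. Without the library of the highest score, 40 were positive and the median was 0.31. Over the 37 libraries of the 12-month cohort, 45 of 45 were positive, with a median r of 0.55 and a range of 0.04 to 0.96. The neighbouring genes Mt1 and Mt2 were the tightest pair in both, at 0.92 and 0.96. All pairs share the same libraries and depth, so these are descriptions with no test.

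The same ranking over 19610 genes placed other glucocorticoid-induced genes near the members. Likeness was the correlation of a gene's deviations with the members' score, over 29 and 37 libraries. Adipor2, an adiponectin receptor, had r of 0.87 in the 3-month and 0.90 in the 12-month cohort, and Mertk, a receptor for phagocytosis, 0.91 and 0.84. Gpt2, a mitochondrial alanine aminotransferase, had 0.87 and 0.84, and Hif3a, a hypoxia-inducible factor subunit, 0.83 and 0.84. Next in rank came Rin2, Gjb6, Fam107a, Sdc4, Xdh, Nfkbia, Slc2a1 and Arrdc2, among them a gap junction protein of astrocytes (Gjb6) and the glucose transporter of the blood-brain barrier (Slc2a1, 0.91 and 0.77). Of 22 further genes listed as glucocorticoid-induced, 15 had r above 0.5 in both cohorts. Among all 19610 genes, 137 did, with those 15 and the 10 members included, and the members form part of the score itself. The list was chosen with earlier results of these data known, so it is no independent support. At the opposite end stood Snx7, Tril, Fabp7 and Nr3c1. Nr3c1, the receptor itself, had -0.70 and -0.55: its level was 81.9 in replicate 2 of the 3-month AD group at 5 mpi, against 122 and 115 in the other AD libraries and 116 to 139 in Ctrl. None of 16 genes of the receptor system (receptors, chaperones, coactivators and the hormone axis) had r above 0.5 in both cohorts. These values too describe shared libraries.

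The first comparison the design offers is AD against Ctrl extract. In the 3-month cohort, averaged over the 3 times, all 10 members had a higher mean log2 level after AD extract, and none passed the test. The median difference of the 10 was 0.27 on the log2 scale, against 0.00 over all genes, of which 50.4% were positive. Single differences ran from 0.03 for Per1 to 0.77 (SE 0.35) for Plin4, and Mt2 had 0.38 (SE 0.11). The limma fit over 19976 genes called no gene at an adjusted p under 0.05 (percent called 0), edgeR called 0 and DESeq2 5 genes, none of them members. At an unadjusted p under 0.05 limma gave 790 genes, 3.95% of those tested, and 6 of the 10 members, whose limma adjusted p was 1.00. The 6 members are not independent of each other, and 1 library was high for all of them. Without replicate 2 of the AD group at 5 mpi, the median difference was 0.17 and 8 of 10 were positive.

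By time after injection in the 3-month cohort, no member passed the test between extracts at any time, and the highest median, that at 5 mpi, rested on 1 library, without which it was 0.06. At 1 mpi, 9 of 10 members were positive with a median of 0.07 (log2 scale), and 0 of 10 had separate groups, as 0.1% of genes were higher without overlap. At 3 mpi, 9 of 10 were positive with a median of 0.35. With 1 library left out at a time that median was 0.25 to 0.42, with 8 to 10 members positive. Mt2 was the member whose groups did not overlap at 3 mpi. Its level was 136, 107, 162, 102 and 114 after AD extract and 80.4, 97.3, 90.4, 93.0 and 98.3 after Ctrl extract, a log2 difference of 0.41 (SE 0.18, limma adjusted p = 0.961). Of all genes, 0.691% were higher without overlap in this comparison. Whether the extract difference at 3 mpi exceeded that at 1 mpi was tested directly, and no member passed; the lowest limma adjusted p was 0.917, for Zbtb16 at 0.27 (SE 0.20). No gene was called there by limma (percent called 0), edgeR or DESeq2, and 1049 genes but 0 members had an unadjusted p under 0.05.

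The AD libraries at 3 mpi were spread widely for Tsc22d3, Sgk1 and Plin4, and less so for Fkbp5. Sgk1 levels were 223, 200, 206, 127 and 73.4 after AD extract and 101, 105, 133, 132 and 101 after Ctrl. Tsc22d3 levels were 137, 98.4, 91.5, 70.9 and 57.5 after AD and 62.8, 74.4, 74.4, 65.4 and 61.1 after Ctrl. Plin4 levels were 37.4, 13.1, 17.1, 8.26 and 4.60 against 7.495, 6.43, 8.06, 6.79 and 3.84. For Sgk1 and Tsc22d3, 3 AD libraries lay above every Ctrl library, 1 within the Ctrl range and 1 below it; for Plin4, 4 lay above and 1 within. The log2 differences were 0.43 (SE 0.24) for Sgk1, 0.37 (SE 0.20) for Tsc22d3 and 0.91 (SE 0.57) for Plin4, with limma adjusted p = 0.961 for each. Fkbp5 levels were 105, 84.1, 83.4, 73.1 and 77.7 after AD extract and 73.1, 71.3, 75.1, 77.2 and 69.7 after Ctrl, a log2 difference of 0.20 (SE 0.17).

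**Figure D3:**
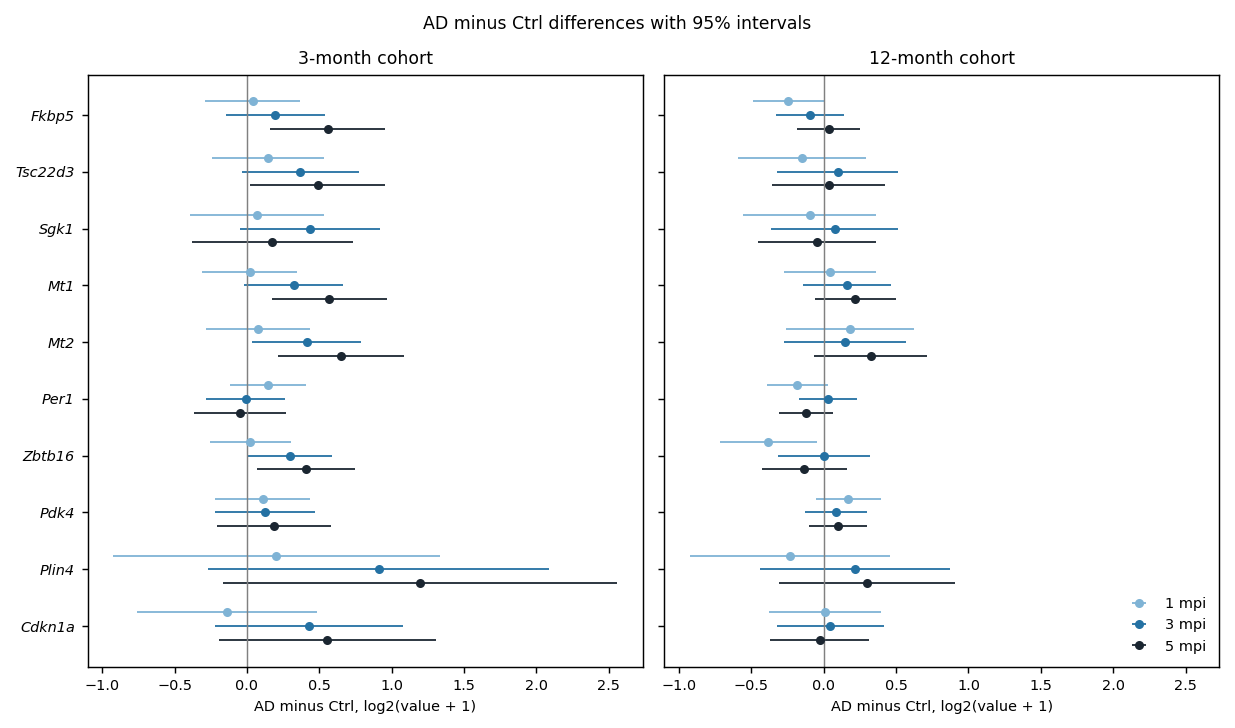
Difference in log2 level between AD and Ctrl extract for each member at 1, 3 and 5 mpi in both cohorts, with 95% intervals from limma. In the 3-month cohort the median member moves from 0.07 at 1 mpi to 0.52 at 5 mpi, which is 0.06 without replicate 2 of the AD group, and in the 12-month cohort the points lie around 0.

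At 5 mpi, with only 3 AD libraries, 9 of 10 members were positive with a median of 0.52 on the log2 scale. Fkbp5 levels were 73.3, 144 and 73.7 after AD extract and 60.9, 60.2, 66.9, 54.4 and 69.6 after Ctrl. Zbtb16 levels were 65.9, 92.5 and 61.3 against 56.8, 51.2, 59.6, 45.3 and 58.1. Both genes were higher in every AD library than in any Ctrl library; 1.87% of all genes were. Their log2 differences were 0.56 (SE 0.19) and 0.41 (SE 0.16), each with limma adjusted p = 1.00. Mt1 levels were 168, 302 and 184 after AD extract and 141, 131, 126, 173 and 142 after Ctrl, and Mt2 levels 113, 228 and 140 against 96.9, 98.1, 77.6, 119 and 101. The metallothioneins overlapped by 1 library each, with log2 differences of 0.57 (SE 0.19) for Mt1 and 0.65 (SE 0.21) for Mt2. At an unadjusted p under 0.05 there were 5 members and 922 genes, but limma and edgeR called 0 of either (percent called 0). DESeq2 called 7 genes including Plin4 at 3.24 (SE 0.74, DESeq2 adjusted p = 0.036), which rests on the library at 97.04.

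Leaving out that library, replicate 2, changed the picture at 5 mpi. The median log2 difference became 0.06 and 5 of 10 members were positive. Fkbp5 was then at 0.24, Zbtb16 at 0.23, Mt1 at 0.31 and Mt2 at 0.37, and Tsc22d3 at 0.15. Sgk1 went to -0.29, Plin4 to -0.42 and Cdkn1a to -0.30, with no limma adjusted p below 0.831. The library is the Xist-high one of its group of 3. With all libraries and a covariate for sex-linked genes, no member was called at 5 mpi either. The part of this library's Xist level in the difference between extracts was not tested itself. Compared with 1 mpi, the extract difference at 5 mpi was higher for 9 of 10 members with all libraries, with a median of 0.45 on the log2 scale; no gene was called by limma (percent called 0), edgeR or DESeq2, and 813 genes and 3 members had an unadjusted p under 0.05.

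In the 12-month cohort no member passed the test between extracts. Averaged over times, 5 of 10 were higher after AD extract, the median log2 difference was 0.00, and the range was -0.17 (Zbtb16, SE 0.09) to 0.22 (Mt2, SE 0.12). The lowest limma adjusted p among members was 0.351, for Pdk4. Over 20084 genes limma called 2 (0.00996%), edgeR 2 and DESeq2 159, with 0 members in each, and 0 members had an unadjusted p under 0.05. At 1 mpi, Zbtb16 levels ran from 33.3 to 65.2 with a median of 41.0 in 6 AD libraries, and were 45.9, 65.3, 82.1, 45.0 and 50.6 in Ctrl, a log2 difference of -0.38 (SE 0.16, limma adjusted p = 0.347). At 5 mpi, Mt2 levels ran from 53.8 to 189 with a median of 83.7 after AD extract and from 61.2 to 105 with a median of 82.8 after Ctrl, a log2 difference of 0.32 (SE 0.19, limma adjusted p = 0.663). The 3 AD libraries at 151, 182 and 189 lay above every Ctrl library while the medians were close. At single times limma called 1 gene at 1 mpi (0.00498%), 0 at 3 mpi and 11 at 5 mpi (0.0548%), 0 of them members; DESeq2 called 28, 0 and 28 and edgeR 0, 0 and 13, also without members. At 1, 3 and 5 mpi, 0 of 10 members had separate groups; 0.787%, 0.0996% and 0.119% of genes were higher without overlap.

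The difference between the cohorts in the extract effect was tested itself. For 10 of 10 members the AD minus Ctrl difference was smaller in the 12-month than in the 3-month cohort, with a median of -0.26 on the log2 scale, against 0.00 over all genes. The largest in relation to their error were Zbtb16 at -0.41 (SE 0.13) and Fkbp5 at -0.36 (SE 0.12), each with limma adjusted p = 0.866. None of 21297 genes was called by limma (percent called 0) or edgeR and 3 by DESeq2, none a member; 1175 genes and 2 members had an unadjusted p under 0.05. Leaving out 1 library at a time moved the median between -0.38 and -0.08.

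Other genes of the pathway had differences of the same sign in the 3-month cohort, also with none past the test. Of the 22 further glucocorticoid-induced genes, 20 had a positive AD minus Ctrl difference averaged over times, with a median of 0.16 on the log2 scale, and 0 were called. Over all genes 50.4% were positive and the median was 0.00. Most of the 22 moved with the members in the same libraries, and the list was chosen with earlier results known. They are thus no independent support. Mertk had 0.29 (SE 0.08), Fam107a, an actin-binding stress-response gene, 0.30 (SE 0.09) and Hif3a 0.58 (SE 0.21), each with limma adjusted p = 1.00. Of the 16 receptor-system genes 8 were positive, with a median of 0.00; Nr3c1 had -0.10 (SE 0.05). In the 12-month cohort 9 of the 22 were positive with a median of -0.02.

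**Figure D4:**
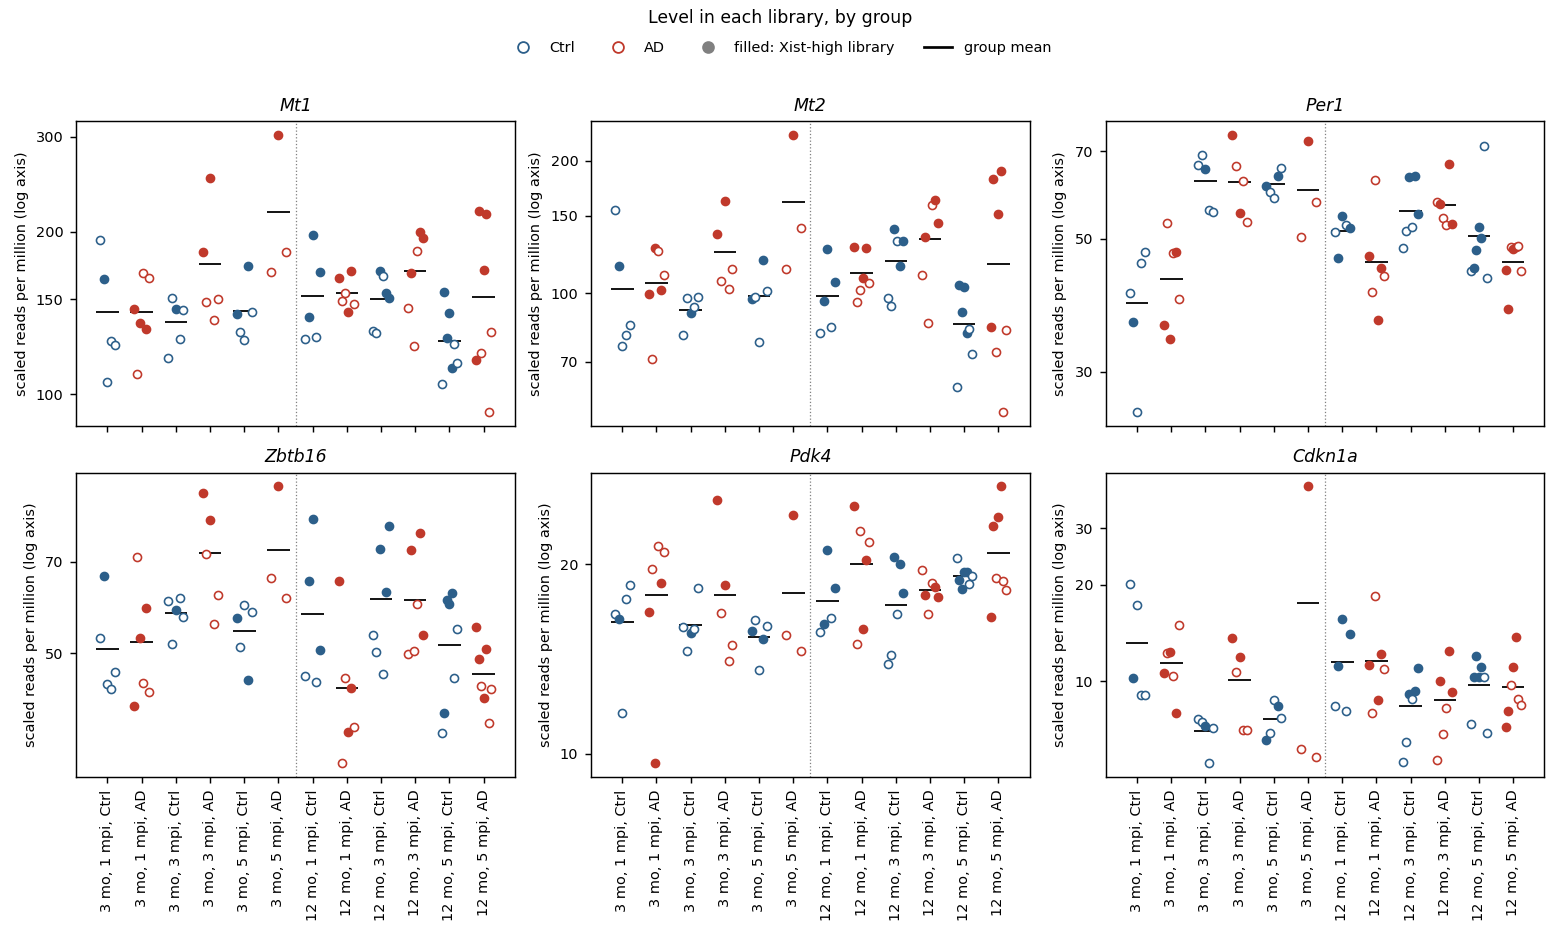
Level of Mt1, Mt2, Per1, Zbtb16, Pdk4 and Cdkn1a in each of 66 libraries, in scaled RPM on a log axis, by cohort, time after injection and extract. Points are libraries, filled where Xist-high, and the line is the group mean; Per1 in the 3-month cohort rises from a mean of 39.1 at 1 mpi to 62.4 at 3 mpi in Ctrl.

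Time after injection gave the differences that passed the test. In the 3-month Ctrl groups Per1, a repressor of the circadian clock that glucocorticoids also induce, rose from 1 to 3 mpi. Its level was 40.7, 36.3, 25.8, 45.5 and 47.5 at 1 mpi and 66.5, 69.0, 65.3, 55.9 and 55.5 at 3 mpi. Every library at 3 mpi lay above every library at 1 mpi. The log2 difference was 0.68 (SE 0.13, 95% interval 0.41 to 0.96, limma adjusted p = 0.011), and its sign held in each of 29 refits with 1 library left out, at 0.55 to 0.76. Fitted on only the groups compared, it was 0.68 with limma adjusted p = 0.069, past the threshold no longer. Limma called 359 of 19976 genes in this comparison (1.8%), 219 of them higher (1.1%), and Per1 was the 1 member among them.

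Tsc22d3 and Sgk1 also had separate Ctrl groups at 1 and 3 mpi but missed the threshold. Tsc22d3 levels were 48.4, 47.9, 30.7, 49.2 and 52.3 at 1 mpi, all below those at 3 mpi given above, and the log2 difference was 0.57 (SE 0.20, limma adjusted p = 0.116). Sgk1 levels were 82.0, 71.5, 65.9, 89.5 and 74.3 at 1 mpi, again below all at 3 mpi, with a log2 difference of 0.57 (SE 0.24, limma adjusted p = 0.196). Cdkn1a, which halts the cell cycle, ran the other way, from 20.2, 10.3, 17.3, 9.05 and 9.07 at 1 mpi to 7.63, 7.47, 7.27, 5.56 and 7.15 at 3 mpi. Its groups did not overlap either, and its log2 difference was -0.75 (SE 0.32, limma adjusted p = 0.201). In all, 3 members were higher without overlap, as were 2.81% of all genes, and 1 was lower, as were 1.7%.

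In the 3-month AD groups Tsc22d3 and Per1 rose from 1 to 3 mpi. At 1 mpi Tsc22d3 levels ran from 37.9 to 59.0 with a median of 50.8 in 6 libraries, against 57.5 to 137 at 3 mpi, a log2 difference of 0.79 (SE 0.19, limma adjusted p = 0.048). Per1 levels ran from 34.0 to 53.1 with a median of 43.5 at 1 mpi and were 74.4, 65.99, 55.3, 62.5 and 53.2 at 3 mpi, a log2 difference of 0.53 (SE 0.13, limma adjusted p = 0.049). The Per1 groups did not overlap, as those of 0.801% of genes that were higher, and the lowest Tsc22d3 library at 3 mpi lay below the highest at 1 mpi. Sgk1 levels ran from 74.2 to 87.4 with a median of 80.7 at 1 mpi, and the log2 difference was 0.93 (SE 0.23, limma adjusted p = 0.051). While limma did not call Sgk1, edgeR did (1.05, edgeR adjusted p = 0.022), as did DESeq2 (1.05, DESeq2 adjusted p = 0.0020). Zbtb16 had 0.47 (SE 0.14, limma adjusted p = 0.112) and Plin4 1.08 (SE 0.55, limma adjusted p = 0.390). Limma called 117 genes (0.586%), 44 of them higher (0.22%).

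The calls of Tsc22d3 and Per1 in the AD groups lay close to the threshold. Tsc22d3 passed in 9 and Per1 in 6 of 29 refits with 1 library left out, with limma adjusted p of 0.016 to 0.155 and 0.015 to 0.152. The log2 difference of Tsc22d3 stayed between 0.63 (without replicate 1 of the AD group at 3 mpi) and 0.94 (without replicate 5), and that of Per1 between 0.47 and 0.60. From 3 to 5 mpi, Sgk1 levels in the AD groups went to 56.3, 175 and 75.2, a log2 difference of -0.76 (SE 0.27, limma adjusted p = 0.103). In that comparison limma called 1045 genes (5.23%) and 0 members, with 3996 genes and 1 member at an unadjusted p under 0.05; edgeR and DESeq2 called 0 members as well. The 10 choroid plexus markers were all called lower there, with a median log2 difference of -3.75. With a covariate for choroid plexus genes Sgk1 was not called there either, and the part of these markers in its value was not tested itself. In the Ctrl groups between 3 and 5 mpi, Sgk1 had -0.50 (SE 0.24, limma adjusted p = 0.538), and limma called 1 gene (0.00501%) and 0 members, as edgeR and DESeq2 called 0 members, with 1 at an unadjusted p under 0.05.

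Clock genes moved with Per1 between 1 and 3 mpi. Of 16 other clock genes, 6 rose and 2 fell in the 3-month Ctrl groups. Dbp, an output transcription factor of the clock, rose by 1.62 (SE 0.20, limma adjusted p = 5.0e-05) on the log2 scale, and Ciart, a clock repressor, by 1.33 (SE 0.11, limma adjusted p = 7.5e-08). Arntl, whose protein BMAL1 activates Per1 through E-boxes, fell by 0.39 (SE 0.07, limma adjusted p = 0.0076), and Clock, its partner, fell by 0.28; these were the 2 that fell and are named after their values were seen. Dbp levels in Ctrl were 16.8, 20.6, 8.28, 21.7 and 32.1 at 1 mpi and 58.0, 63.6, 67.3, 47.4 and 57.0 at 3 mpi, so these groups too were separate. In the AD groups of that cohort 4 of the 16 rose and 1 fell, with Dbp at 1.32 and Arntl at -0.48. A clock covariate was formed as the mean log2 level of Dbp, Per2, Per3, Nr1d1 and Ciart minus that of Arntl, Npas2 and Clock. Dbp, a part of it, separates the Ctrl groups at 1 and 3 mpi, so a fit with both can hardly tell the covariate from time. With it, the log2 difference of Per1 was -0.18 (SE 0.24, limma adjusted p = 0.757) in Ctrl and -0.23 (SE 0.21, limma adjusted p = 0.604) in AD. That of Tsc22d3 in AD was 0.07 (SE 0.37, limma adjusted p = 0.941). Fkbp5 in AD was then at 1.16 (SE 0.28, limma adjusted p = 0.039), and 8 of 10 members were positive in AD with a median of 0.49. The time of day of tissue collection is not given in the sources used here.

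**Figure D5:**
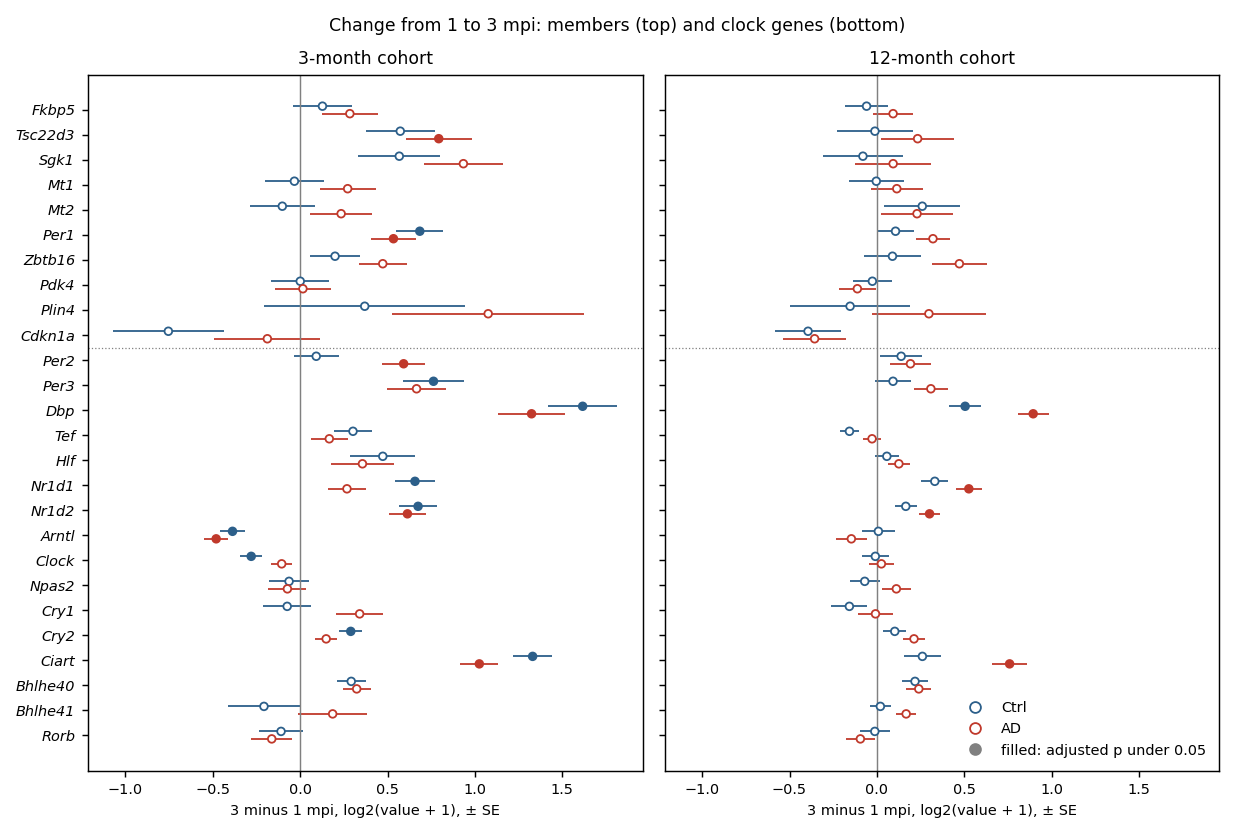
Difference in log2 level between 3 and 1 mpi for the 10 members and 16 other clock genes in each cohort and extract, with standard errors; filled points passed limma's adjusted p of 0.05. In the 3-month Ctrl groups Per1 (0.68) stands with Dbp (1.62) and Ciart (1.33), while Arntl (-0.39) lies below 0.

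Some cell type markers also differed between these times. In the 3-month AD groups the microglial genes Csf1r and Cx3cr1 fell from 1 to 3 mpi, by 0.31 and 0.41 on the log2 scale. The endothelial gene Cldn5 fell by 0.64 and the oligodendrocyte precursor gene Gpr17 by 0.50. Markers were named by the smallest p of each list, and the other markers of these lists are not given. A change of a whole cell type cannot be read from the markers named. The part of cell composition in the members' differences was not tested. Hspa8, a chaperone of the receptor, was the 1 of 16 receptor-system genes called, at -0.30 (SE 0.07). Of the 22 further glucocorticoid-induced genes, 18 were positive with a median of 0.16 and 0 were called.

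In the 12-month cohort no member passed the test between times. In AD groups Per1 ran from 36.6 to 62.6 with a median of 44.0 at 1 mpi and from 52.7 to 66.7 with a median of 55.6 at 3 mpi, a log2 difference of 0.32 (SE 0.10, limma adjusted p = 0.110), and Zbtb16 had 0.47 (SE 0.16, limma adjusted p = 0.145). Limma called 167 genes (0.832%), 0 of them members, with 2859 genes and 2 members at an unadjusted p under 0.05; edgeR called 0 members and DESeq2 0. From 3 to 5 mpi Per1 in AD groups went down to 38.2 to 48.7 with a median of 48.1, below every library at 3 mpi, as 0.159% of genes were, with a log2 difference of -0.31 (SE 0.10, limma adjusted p = 0.224). The clock genes again moved in the same comparisons: 4 of 16 rose from 1 to 3 mpi, among them Dbp by 0.89 (SE 0.09), and 4 fell from 3 to 5 mpi, among them Dbp by 0.90 (SE 0.09). In the 12-month Ctrl groups Per1 differed by 0.11 between 1 and 3 mpi, Dbp rose by 0.51, and Mt2 had -0.47 (SE 0.20, limma adjusted p = 0.412) between 3 and 5 mpi. Between 1 and 3 mpi limma called 4 genes in these Ctrl groups (0.0199%) and between 3 and 5 mpi 43 (0.214%), and in the AD groups 39 between 3 and 5 mpi (0.194%). None was a member, by edgeR and DESeq2 neither, and 1, 1 and 2 members had an unadjusted p under 0.05. Comparisons that meet at 3 mpi share its libraries. The change of the extract difference from 1 to 5 mpi was tested in this cohort too: limma called 1 gene (0.00498%) and 0 members, edgeR and DESeq2 0 members, and 0 members had an unadjusted p under 0.05.

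Age was compared in Ctrl groups, averaged over times. None of the 10 members passed the test between 12 and 3 months, while limma called 4419 of 21297 genes (20.7%). The members' median log2 difference was 0.03, with a range of -0.13 (Sgk1, SE 0.14) to 0.26 (Plin4, SE 0.27). Pdk4 had the lowest limma adjusted p, 0.157, at 0.16 (SE 0.08). At an unadjusted p under 0.05 there were 6982 genes and 0 members, and edgeR and DESeq2 called 0 members. Other genes of the pathway were called in numbers to be read against that 20.7%: 6 of 16 receptor-system genes and 4 of 22 further glucocorticoid-induced genes. Of the 16 receptor-system genes 5 rose with age, including Ptges3, the co-chaperone p23, by 0.24 (SE 0.04, limma adjusted p = 5.3e-07), and Hspa8 by 0.23 (SE 0.04, limma adjusted p = 1.8e-05), and Crhr2, a receptor for corticotropin-releasing hormone family peptides, fell by 0.46 (SE 0.16, limma adjusted p = 0.035), the 1 that fell. Of the 22 further glucocorticoid-induced genes 4 rose: Cebpb by 0.48 (SE 0.11), Gjb6 by 0.29 (SE 0.09), Bcl6 by 0.20 and Sesn1 by 0.16. The cohorts were deposited as separate tables, so a processing batch and age cannot be told apart. Xist-high libraries also made up a smaller share of the younger Ctrl groups. At 1, 3 and 5 mpi they were 1 of 5, 1 of 5 and 2 of 5 there. Among the older Ctrl groups they were 3 of 5, 3 of 6 and 4 of 7. The part of this imbalance in the age differences was not tested itself.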

How the data were processed

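Hippocampal poly(A) RNA of 66 mouse libraries was analysed from 2 tables of 55421 genes, 1 per age cohort. Per the submitters' processing notes the tools were STAR, Picard and edgeR with GRCm38; the sources used here state no versions. The deposited values are a signal: reads per library total (RPM), scaled by the authors with 1 factor per library (0.957 to 1.04 from the values). Reads were recovered as whole numbers for 100% of values (tolerance 0.01), giving 42462638 to 65907005 reads per library. The precision of a level is thus set by the spread between libraries.

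Genes were filtered with filterByExpr of edgeR 4.0.16 on recovered reads, and log2(value + 1) was fitted with limma 3.58.1 (trend, 1 mean per group, 19976 or 20084 genes, 6 groups per cohort) in R 4.3.3, with Benjamini-Hochberg adjustment and a threshold of 0.05. Fold changes are on that scale, which understates those of low genes. Comparisons across cohorts used TMM-scaled CPM over 21297 genes. No pair of libraries within a group was a duplicate. Alternatives were edgeR's quasi-likelihood test, DESeq2 1.42.0, other scalings, filters and covariates, a pseudocount of 0.1, a replicate block and each library left out. On simulated reads with 200 changed genes, limma recovered 45% at 1.5-fold and 73% at 2-fold for AD against Ctrl at 5 mpi in the 3-month cohort, and 63% and 73.5% in the 12-month cohort. Those genes were drawn at random, with noise independent between genes. The rates do not carry over to the members, which vary more than most genes and share high libraries. Of each further gene list, up to 4 genes with the smallest p were named. Of the genes most like the members, the first 12 and the 4 most opposite were named, leaving out gene models without a symbol of their own. The members and all lists were chosen with earlier results of these data known. Promoters and gene names came from RefSeq on GRCm38.p6. One further result is not reported here.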

Additional observations from a re-analysis of the deposited data

Results flagged for a closer look

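Levels, in scaled RPM, were checked in each group of 4 to 10 libraries for a highest or lowest library set far apart from its neighbour (Dixon's criterion). Of 110 combinations of member and group, 10 (9.09%) were marked, against 5.5 that chance gives at 5%, and 7 of the 10 were high values. The group of 3 AD libraries at 5 mpi in the 3-month cohort, which holds the highest Plin4 level, was too small for this check.

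Sgk1 was marked in 3 groups, each for a high library: 105.9 in replicate 4 of the 3-month Ctrl group at 5 mpi (nearest 76.8), 158.2 in replicate 5 of the 12-month AD group at 3 mpi (nearest 93.9) and 104.4 in replicate 5 of the 12-month AD group at 5 mpi (nearest 77.9). Plin4 was marked at 20.19 in replicate 3 of the 12-month Ctrl group at 1 mpi (nearest 8.07) and at 21.32 in replicate 5 of the 12-month AD group at 3 mpi (nearest 10.5). Per1 was marked at 66.74 in that last library (nearest 57.5), at 71.35 in replicate 6 of the 12-month Ctrl group at 5 mpi (nearest 52.4), and as a low value at 38.22 in replicate 2 of the 12-month AD group at 5 mpi (nearest 44.2). Replicate 5 of the 12-month AD group at 3 mpi was thus marked for Sgk1, Plin4 and Per1. The other low values were Tsc22d3 at 30.72 in replicate 3 of the 3-month Ctrl group at 1 mpi (nearest 47.9) and Cdkn1a at 5.559 in replicate 4 of the 3-month Ctrl group at 3 mpi (nearest 7.15).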

How the results depend on the processing

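The number of members called changed mainly in 1 comparison, AD at 3 against 1 mpi in the 3-month cohort, where 2 were called: DESeq2 called 4, a pseudocount of 0.1 called 1 (Tsc22d3), a clock covariate 1 (Fkbp5 at 1.16, neither Tsc22d3 nor Per1), and the fits with no filter, robust spread, a choroid plexus covariate or only the groups compared 0. The replicate block called 0 there and 3 members in the 12-month comparison of Xist-high with other libraries (5 as reported), with limma adjusted p = 0.162 for Mt1 and 0.066 for Mt2, and 3 of the 22 further genes (8 as reported). Per1 in the 3-month Ctrl groups (1 called) was at 0 calls with a clock covariate and with only the groups compared. The clock covariate reversed Per1, to -0.18 in Ctrl and -0.23 in AD, between 1 and 3 mpi. DESeq2 called 1 member (Plin4) for AD against Ctrl at 5 mpi in the 3-month cohort, the sex-linked covariate 1 (Zbtb16, 0.48) for 12-month AD at 3 against 1 mpi, and the choroid, clock and groups-compared fits 1 each (Pdk4) for age in Ctrl. No other alternative moved a count of members called beyond 1.5 times. Sgk1, not called as reported for 3-month AD at 3 against 1 mpi, was called there by edgeR and DESeq2. It was also called with relative log expression or upper-quartile scaling, a stricter filter or the sex-linked covariate.

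With 1 library left out, members called ranged from 0 to 4 for 3-month AD at 3 against 1 mpi, 1 to 2 for Ctrl there, 0 to 2 for 3-month AD at 5 against 3 mpi, 0 to 1 for 12-month AD at 3 against 1 mpi, and 5 to 7 for Xist-high libraries in the 12-month cohort; in all other comparisons they stayed at 0. Sgk1 in 3-month AD at 5 against 3 mpi was called at -1.02 without replicate 5 of the group at 3 mpi, and at -1.23, with Plin4 at -2.04, without replicate 2 of the group at 5 mpi. Per1 in 12-month AD at 3 against 1 mpi was called at 0.41 without replicate 3 of the group at 1 mpi.

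Counts of genes called moved more. Across the other alternatives they ran from 1 to 893 for 3-month Ctrl at 3 against 1 mpi (359 as reported), 18 to 348 for AD there (117), 1 to 2154 for 3-month AD at 5 against 3 mpi (1045), 35 to 348 for 12-month AD at 3 against 1 mpi (167), 0 to 159 for AD against Ctrl in the 12-month cohort (2), 251 to 4774 for age in Ctrl (4419) and 108 to 549 for Xist-high libraries in the 12-month cohort (297). The replicate numbers did not pair the libraries: 12 of 31 same-numbered pairs had a correlation above 0.1, over a range of -0.39 to 0.64. Depth did not limit the members, whose lowest value rests on 91 reads; the 3 AD libraries at 5 mpi in the 3-month cohort and the spread of Plin4, Sgk1 and Cdkn1a do.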

Other observations

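Xist-high libraries, those whose Xist level exceeded that of 4 Y-linked genes, had higher levels of 5 of the 10 members in the 12-month cohort. This comparison was chosen after the data were seen, in libraries placed by their Xist and Y-linked levels. Among 20 Xist-high and 17 other libraries, with the 6 group means fitted, 5 members were called higher by limma, where 297 of 20084 genes were called (1.48%), 133 of them higher (0.662%). Tsc22d3 levels were 66.3 ± 15.7 (SD, n = 20) in Xist-high and 46.0 ± 7.67 (SD, n = 17) in other libraries, a log2 difference of 0.51 (SE 0.09, limma adjusted p = 0.00077). Tsc22d3 lies on the X chromosome, unlike the other members, and the part of this in its difference was not tested. Fkbp5 levels were 73.4 ± 9.71 against 60.0 ± 6.03, a log2 difference of 0.28 (SE 0.05). Mt2 had 0.47 (SE 0.09), Zbtb16 0.35 (SE 0.07) and Mt1 0.30 (SE 0.07, limma adjusted p = 0.019). Each of these 5 was higher in 6 of 6 groups, so in Ctrl and AD groups alike at every time.

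The other 5 members did not pass the test. Plin4 had 0.58 (SE 0.16) and Cdkn1a 0.32 (SE 0.09), each with limma adjusted p = 0.060, and Sgk1 0.33 (SE 0.11, limma adjusted p = 0.130). Per1 had -0.00 (SE 0.06), with means of 50.7 and 51.0. Of the 22 further glucocorticoid-induced genes 8 were called higher, led by Hif3a at 0.86 (SE 0.13) and Fam107a at 0.31 (SE 0.06). Without 2 libraries whose Xist and Y-linked levels lay between the others, 7 members were called. Some cell type markers differed in the same comparison. Of 8 endothelial markers 3 were called lower, Cldn5 at -0.33 (SE 0.07), Slco1a4 at -0.25 and Flt1 at -0.16, and 1 higher, Ly6c1 at 0.20. The mural cell gene Kcnj8 had -0.26, the neuronal gene Slc17a7 -0.14 and the oligodendrocyte gene Mobp 0.28. Each was the only one called by limma of its list, of 6 mural, 6 neuronal and 7 oligodendrocyte markers. The neuronal Snap25 had 0.02 and the oligodendrocyte Opalin -0.15, so markers of a list did not move together. The part of cell composition in the members' differences in this comparison was not tested.

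In the 3-month cohort, with 10 Xist-high and 19 other libraries, 10 of 10 members were positive with a median of 0.28 on the log2 scale, against 48.5% of genes, and 0 were called among 17 genes (0.0851%) by limma; edgeR and DESeq2 called 0 members, and 1421 genes had an unadjusted p under 0.05. Plin4 had 0.99 (SE 0.32, limma adjusted p = 0.527). The Xist-high libraries include replicate 2 of the AD group at 5 mpi, where Plin4 was at 97.04. Without that library the members' median was 0.17. With 1 library left out at a time, 8 to 10 members were positive. Whether the cohorts differ in the difference between Xist-high and other libraries was not tested.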
